A study of Homo sapiens with 3 samples.

Results

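The promoters of the HOX genes were followed in a promoter capture Hi-C (PCHi-C) data set of hESC-CMs, which are cardiomyocytes made from WA09 (H9), a line of human embryonic stem cells. In PCHi-C, fixed chromatin is digested with HindIII, ends held near each other are joined, and joined pieces with a promoter on either end are pulled out with promoter baits and sequenced. The members were 38 HOX genes, 10 of the HOXA, 10 of the HOXB, 9 of the HOXC and 9 of the HOXD cluster. A HOX promoter fragment was a HindIII fragment listed as the promoter end of a contact that held an annotated transcript start of a member. There were 35 such fragments among 19075 promoter fragments in the data set, 10 in HOXA, 8 in HOXB, 8 in HOXC and 9 in HOXD. They served 36 of the 38 genes, since no listed promoter fragment of the replicates held a start of HOXB1 or HOXB2. Of the 35 fragments, 27 held 1 member gene, 6 held 2 and 2 held 3, so that genes on the same fragment cannot be told apart. A slash joins such genes, as in HOXC6/HOXC9. A fragment is named by any annotated start that it holds, and fragments are ordered by position, not by gene number. The HOXD3 fragment, chr2:176999630-177004368, thus comes between those of HOXD8 and HOXD4.

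All the samples came from 1 condition, hESC-CMs in 3 biological replicates. The WA09 monolayers were differentiated with a commercial cardiomyocyte kit at passage 32, enriched in medium with lactate in place of glucose for 6 days, returned to serum and RPMI1640-B27 medium and fixed with 2% formaldehyde. There was no undifferentiated or untreated group here, all cells came from 1 line, and nothing in the sources says whether the replicates were separate differentiations. The files hold contact scores and no expression, so the cell type label, which rests on the study's purity check with the cardiomyocyte markers MYH7 and TNNT2, was not checked against markers, and it is not known from these files which HOX genes were transcribed.

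HOX genes encode homeodomain transcription factors that give cells their position along the head-to-tail axis of the embryo. In mammals they lie in 4 clusters on different chromosomes, and within a cluster all are transcribed in the same direction. Genes at the 3′ end of a cluster, with low numbers, are used early and towards the head, while genes at the 5′ end, with high numbers, are used late, towards the tail and in the limb bud and genital tubercle. Distant regulatory regions on both flanks of the HOXA and HOXD clusters are known, as is the packing of silent HOX genes into Polycomb domains. The heart uses mainly HOX genes of the 3′ ends, which mark part of the second heart field. Below, the 3′ side of a promoter is the side towards the low-numbered end of its cluster and the 5′ side is the other.

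A contact was an unordered pair of a HOX promoter fragment and its promoter-interacting region (PIR), the fragment at the other end. The CHiCAGO score given with each contact grades the confidence that read pairs exceed a background that depends on distance and technical noise. It is not a contact frequency, and the read coverage of each promoter is unknown here. Below, the strongest contact is the one with the highest score. The lowest score listed was 5, so the lists cannot show that a contact was lacking. Depth is unknown from these files, which hold no read counts. With 1 condition and 3 replicates no test between groups was run, and differences are read against the ranges and SDs of the replicates. Coordinates are those of GRCh37.

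Many PIRs were shared by several promoters of a cluster, and 7 of them are short enough to print whole. They were listed for 3 to 7 promoter fragments of their cluster in at least 1 replicate and for 2 to 6 in all 3 replicates. They are shown because they narrow the partner of these HOX promoters to a short stretch, and each is given on the forward strand, 5′ to 3′, from the GRCh37 sequence. None of them overlapped an annotated exon, and none held a match to the motif searched below, so they have no capitals.
HOXA 3′ side, intron of SKAP2, chr7:26896822-26897027: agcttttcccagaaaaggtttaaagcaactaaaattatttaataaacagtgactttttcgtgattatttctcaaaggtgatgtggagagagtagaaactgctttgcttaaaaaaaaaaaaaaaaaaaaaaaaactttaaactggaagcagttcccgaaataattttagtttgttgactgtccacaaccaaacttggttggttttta
HOXA 5′ side, intron of JAZF1, chr7:28059719-28059933: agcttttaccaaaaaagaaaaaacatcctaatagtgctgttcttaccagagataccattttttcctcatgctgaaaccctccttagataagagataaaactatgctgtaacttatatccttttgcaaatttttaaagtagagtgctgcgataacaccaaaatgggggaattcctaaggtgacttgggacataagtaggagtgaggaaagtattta
HOXB 3′ side, intron of SKAP1, chr17:46229550-46229767: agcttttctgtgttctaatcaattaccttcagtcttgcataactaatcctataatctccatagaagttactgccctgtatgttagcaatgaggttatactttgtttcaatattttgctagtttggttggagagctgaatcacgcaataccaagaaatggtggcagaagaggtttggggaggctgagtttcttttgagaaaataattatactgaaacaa
HOXC 3′ side, between SMUG1 and CBX5, chr12:54610392-54610649: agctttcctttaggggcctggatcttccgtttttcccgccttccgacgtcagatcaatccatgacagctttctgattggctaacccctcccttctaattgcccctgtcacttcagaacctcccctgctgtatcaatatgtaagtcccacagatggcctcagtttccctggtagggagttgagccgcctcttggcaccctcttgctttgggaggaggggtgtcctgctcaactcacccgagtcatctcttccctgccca
HOXC 5′ side, intron of a long noncoding RNA between CALCOCO1 and HOXC13, chr12:54162987-54163273: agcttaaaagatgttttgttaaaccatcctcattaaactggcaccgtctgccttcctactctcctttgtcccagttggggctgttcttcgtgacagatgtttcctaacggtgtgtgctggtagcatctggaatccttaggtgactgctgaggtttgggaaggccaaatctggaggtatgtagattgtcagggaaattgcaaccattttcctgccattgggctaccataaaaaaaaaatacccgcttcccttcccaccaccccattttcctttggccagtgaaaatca
HOXD 5′ side, intron of a long noncoding RNA between ATP5MC3 and LNPK, chr2:176232988-176233254: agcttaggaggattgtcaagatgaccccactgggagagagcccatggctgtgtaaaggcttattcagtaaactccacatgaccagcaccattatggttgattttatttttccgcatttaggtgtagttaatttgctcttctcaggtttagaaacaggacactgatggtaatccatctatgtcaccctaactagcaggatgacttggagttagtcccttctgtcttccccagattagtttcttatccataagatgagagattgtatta
HOXD 3′ side, intron of LINC01117, chr2:177513350-177513616: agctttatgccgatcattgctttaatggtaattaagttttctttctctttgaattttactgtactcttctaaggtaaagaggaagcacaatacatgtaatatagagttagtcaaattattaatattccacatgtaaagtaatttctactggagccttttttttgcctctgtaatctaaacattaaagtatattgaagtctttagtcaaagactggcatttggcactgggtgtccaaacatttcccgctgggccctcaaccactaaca
Of the 349 fragments at either end of a HOX contact, all 349 had a HindIII site of GRCh37 at both ends.

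A further 6 windows show where larger shared PIRs held the letters AGNNGGCGC, the middle of the motif bound by CTCF, a protein found at the anchors of chromatin loops. Both strands were searched. Capitals mark the match, and a match on the reverse strand appears as its reverse complement. Windows are 101 bases long and outside annotated exons.
HOXA 3′ side, match on the forward strand, chr7:25897443-25897543: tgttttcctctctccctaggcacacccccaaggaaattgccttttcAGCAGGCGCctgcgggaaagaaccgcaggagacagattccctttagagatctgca
HOXA 3′ side, match on the forward strand, chr7:25898275-25898375: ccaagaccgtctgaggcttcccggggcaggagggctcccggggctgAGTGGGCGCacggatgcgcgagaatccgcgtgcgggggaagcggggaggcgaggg
HOXA 3′ side, match on the forward strand, chr7:25901913-25902013: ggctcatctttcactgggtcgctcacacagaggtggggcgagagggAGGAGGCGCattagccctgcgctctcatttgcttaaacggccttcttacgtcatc
HOXC 3′ side, match on the reverse strand, chr12:54585471-54585571: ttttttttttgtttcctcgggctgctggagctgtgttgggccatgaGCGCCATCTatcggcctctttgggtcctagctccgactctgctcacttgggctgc
HOXC 3′ side, match on the forward strand, chr12:54589600-54589700: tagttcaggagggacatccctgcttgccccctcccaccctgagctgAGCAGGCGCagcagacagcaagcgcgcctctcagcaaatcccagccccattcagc
HOXD 3′ side, match on the reverse strand, chr2:178013778-178013878: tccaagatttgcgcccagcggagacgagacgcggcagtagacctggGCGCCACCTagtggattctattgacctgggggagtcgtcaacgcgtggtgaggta
The windows of HOXA lie in 1 PIR, chr7:25894198-25904065, and those of HOXC lie in 1 PIR, chr12:54583081-54591267. The window of HOXD lies in the PIR chr2:178011536-178013882.

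HOX promoters had more contacts than most promoters of the data set, and these contacts recurred more often among the replicates. The 35 fragments had 870 contacts in the union of the replicates, 599 in replicate 1, 570 in replicate 2 and 590 in replicate 3. The median was 25 contacts per HOX fragment in the union, against 6 over all promoter fragments. Of the HOX fragments, 32 lay above that median of 6, and 21 had at least 20 contacts, a number reached by 16.2% of all promoter fragments. Of the 870 contacts, 348 were called in all 3 replicates, 40.0% with a 95% Wilson interval of 36.8% to 43.3%, against a background of 24.0% of all 200587 contacts. Among the HOX calls of each replicate, 58.1%, 61.1% and 59.0% were called in all 3 (59.4% ± 1.52, SD, n = 3), against 42.9%, 43.9% and 43.5% of all calls of replicates 1, 2 and 3. The 2 ranges did not overlap. Wilson intervals cover counting error only, and neighbouring PIRs of the same promoter are not independent.

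The recurrence of HOX contacts stood highest above that of all contacts at long range. Over 100 to 1500 kb, 345 of 831 HOX contacts were called in all 3 replicates (41.5%), against a background of 31.6%. At 100 to 250 kb the share was 47.5% for HOX contacts (Wilson interval 40.4% to 54.8%) and 39.8% for all. At 1000 to 2000 kb it was 45.7% for the 140 HOX contacts (37.7% to 54.0%) and 18.7% for all. Beyond 2000 kb, 3 of 20 HOX contacts were called in all 3, 15.0% with an interval of 5.24% to 36.0%, against 7.67% of all, an interval that includes the value of all contacts. Scores lay close to those of all contacts: the median mean score of contacts in all 3 replicates was 8.50 for HOX and 8.32 over all contacts, and 31.3% and 32.9% of them reached a mean of 10. Over the 348 HOX contacts, the scores of pairs of replicates correlated with Pearson's r of 0.837, 0.824 and 0.839 and Spearman's rho of 0.710, 0.665 and 0.685. These are across contacts that share promoters, PIRs and libraries, and they describe the libraries only.

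**Figure D1:**
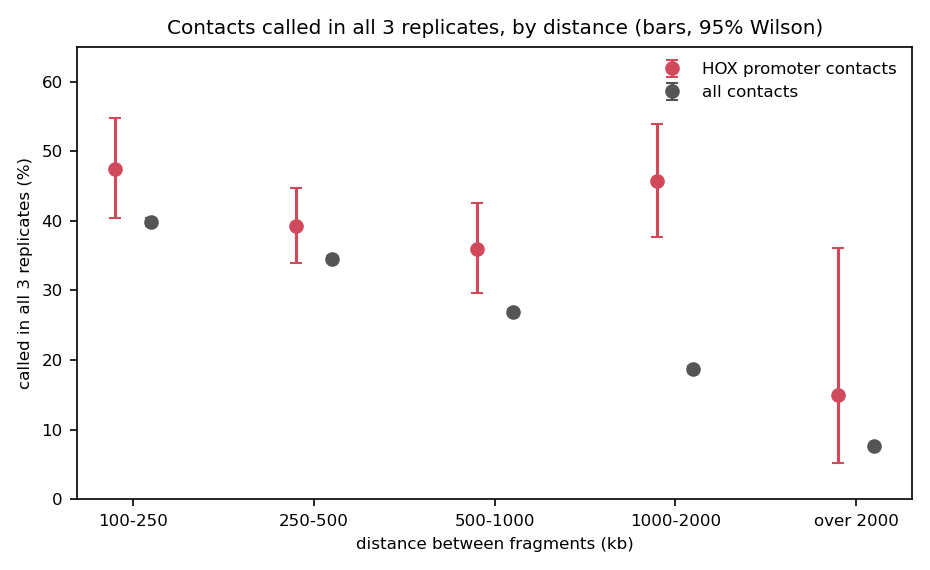
Share of contacts called in all 3 replicates (y axis, %) by the distance between fragment midpoints (x axis, kb) for HOX promoter contacts (red) and all contacts of the data set (grey), with 95% Wilson intervals. The share over all contacts falls from 39.8% at 100 to 250 kb to 7.67% beyond 2000 kb, while that of HOX contacts is 47.5% at 100 to 250 kb and 45.7% at 1000 to 2000 kb.

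Few of the listed HOX contacts ended inside the promoter's own cluster or on another chromosome. No contact joined fragments of different HOX clusters, 0 of 458 possible pairs in any replicate, which allows a share of up to 0.655% for counting error. The share over other pairs of promoter fragments on different chromosomes was not computed, so this value is not read as particular to HOX clusters. No contact joined promoter fragments of the same cluster either, 0 of 137 pairs, which allows up to 2.19%. Among other promoter fragments of the data set at most 148 kb apart on a chromosome, 8.18% of 34695 pairs were called in at least 1 replicate. By distance, 0 of 51 HOX pairs under 25 kb allows up to 5.88%, against 6.09% of other pairs, and 0 of 45 at 25 to 50 kb allows up to 6.67%, against 6.54%. At 50 to 100 kb, 0 of 34 allows up to 8.82%, against 8.01%, and beyond 100 kb, 0 of 7 allows up to 42.9%, against 10.2%. From 25 kb on, the pairs were too few for a difference to be detectable within a class. Under 25 kb, some pairs were directly adjoining fragments, such as HOXD8 and HOXD3. Whether adjoining fragments could be listed is not known from these files, so that class does not settle a difference either. A single contact ended between the outermost HOX promoter fragments of its own cluster. It joined HOXC6/HOXC9 to chr12:54407159-54410238, a fragment 14.5 kb away that holds a HOXC6 start and exon, with scores of 5.09 in replicate 1 and 5.33 in replicate 3. Just past the last HOXC promoter fragment, HOXC8 was listed with chr12:54442787-54448509, which holds a HOXC4 start, with a score of 5 in replicate 3 only, and this is counted on the 3′ side. Both PIRs thus hold a HOX start but were not listed as a promoter end in the replicates, so neither contact is among the 137 pairs. Contacts with other chromosomes were 11 of 870 (1.26%), against 3.87% of all contacts, and each was called in only 1 replicate.

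Among the listed promoter fragments, the number of contacts was lowest at the 5′ ends of HOXB and HOXC and at the 3′ end of HOXD. HOXB1 and HOXB2, at the 3′ end of HOXB, had no listed promoter fragment in the replicates and so are left out. In the merged calls, HOXB1 had 1 contact, HOXB2 6 and a further HOXB3 fragment 5, against 4 for HOXB13 and 9 for HOXB7. Low counts in HOXB were thus not confined to its 5′ end. In HOXB, the fragment of HOXB3 at chr17:46660464-46668809 had the most contacts of all HOX fragments, 55 in the union. It lies on the 5′ side of HOXB3/HOXB4 and had 38, 42 and 48 in replicates 1, 2 and 3. HOXB8 followed with 35, 37 and 36. HOXB13, by contrast, had 1, 0 and 0, and the fragment of HOXB7, which lies on the 5′ side of HOXB9 and holds an alternative start, had 1, 2 and 1. In HOXC, the fragment of HOXC6/HOXC9 had 34, 36 and 41 contacts and HOXC8 had 28, 25 and 34. The 5′ genes of that cluster stood lower, with 4, 3 and 4 at HOXC12 and 0, 0 and 2 at HOXC13. HOXC11 and HOXC6/HOXC10 varied most between replicates, 14, 5 and 6 and 31, 18 and 15, in each case highest in replicate 1. In HOXD, HOXD13 had 28 contacts in each replicate, the largest number of its cluster, and HOXD3 had 25, 28 and 26. HOXD1, at the 3′ end, had 4, 3 and 4, which does not overlap with the range of any other HOXD fragment. In HOXA, the range was narrower, from 6, 5 and 7 at HOXA10 to 23, 19 and 18 at HOXA3/HOXA5/HOXA6, and 1 fragment of HOXA13 had 34 contacts in the union but 4 in all 3 replicates.

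**Figure D2:**
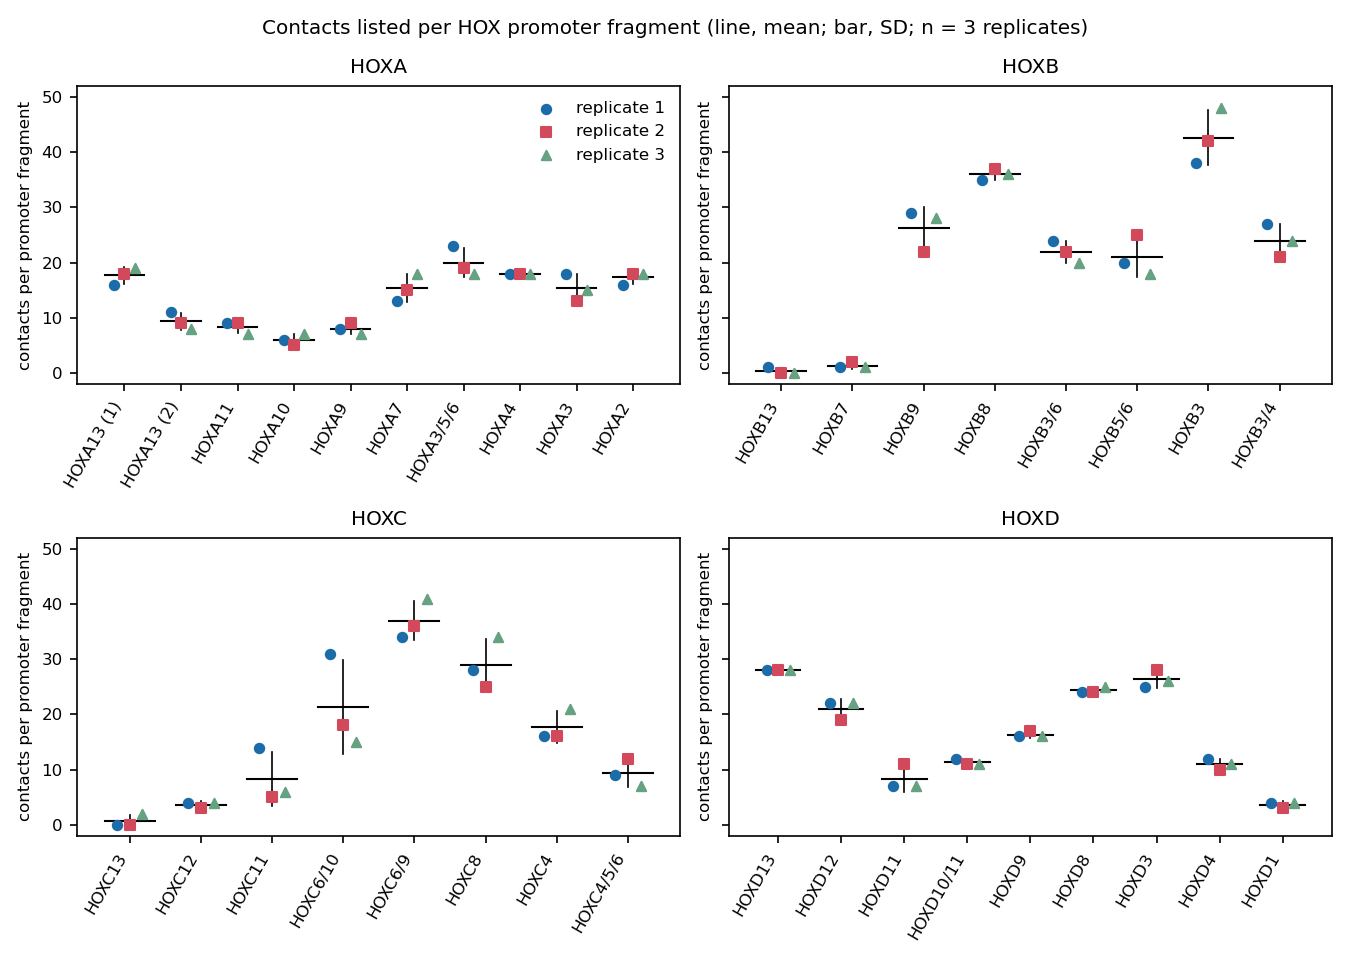
Contacts listed per HOX promoter fragment (y axis) in each replicate, with promoters ordered from the 5′ to the 3′ end of each cluster, the mean as a line and the SD as a bar (n = 3). HOXB3, HOXB8 and HOXC6/HOXC9 lie at 34 to 48 contacts in every replicate, and HOXB13, HOXB7, HOXC13, HOXC12 and HOXD1 at 4 or fewer.

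Contacts pointed to the 3′ side of most promoters and mainly to the 5′ side of HOXA13, HOXC12, HOXD13 and HOXD12. Over all 4 clusters, 674 contacts lay on the 3′ side and 184 on the 5′ side, and the 3′ share was 79.7%, 80.5% and 81.0% in replicates 1, 2 and 3 (80.4% ± 0.654). By cluster, the 3′ share was 100% in every replicate for HOXB, 79.3% ± 1.49 for HOXA, 78.0% ± 4.05 for HOXC and 60.6% ± 1.43 for HOXD (SD, n = 3). HOXB lay above and HOXD below the other clusters in every replicate, while the ranges of HOXA (78.2% to 81.0%) and HOXC (73.3% to 80.9%) overlapped. The median distance also differed, 832 kb for HOXA and 842 kb for HOXD against 385 kb for HOXB and 222 kb for HOXC in the union. The ranges over replicates, 830 to 832 kb, 793 to 833 kb, 356 to 365 kb and 213 to 220 kb, overlapped only between HOXA and HOXD. The HOXA value lay between a median of 1227 kb on the 3′ side and 827 kb on the 5′ side, and it rose to 1222 kb at a score of at least 7 and 1257 kb at 10, where HOXD had 834 and 837 kb.

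**Figure D3:**
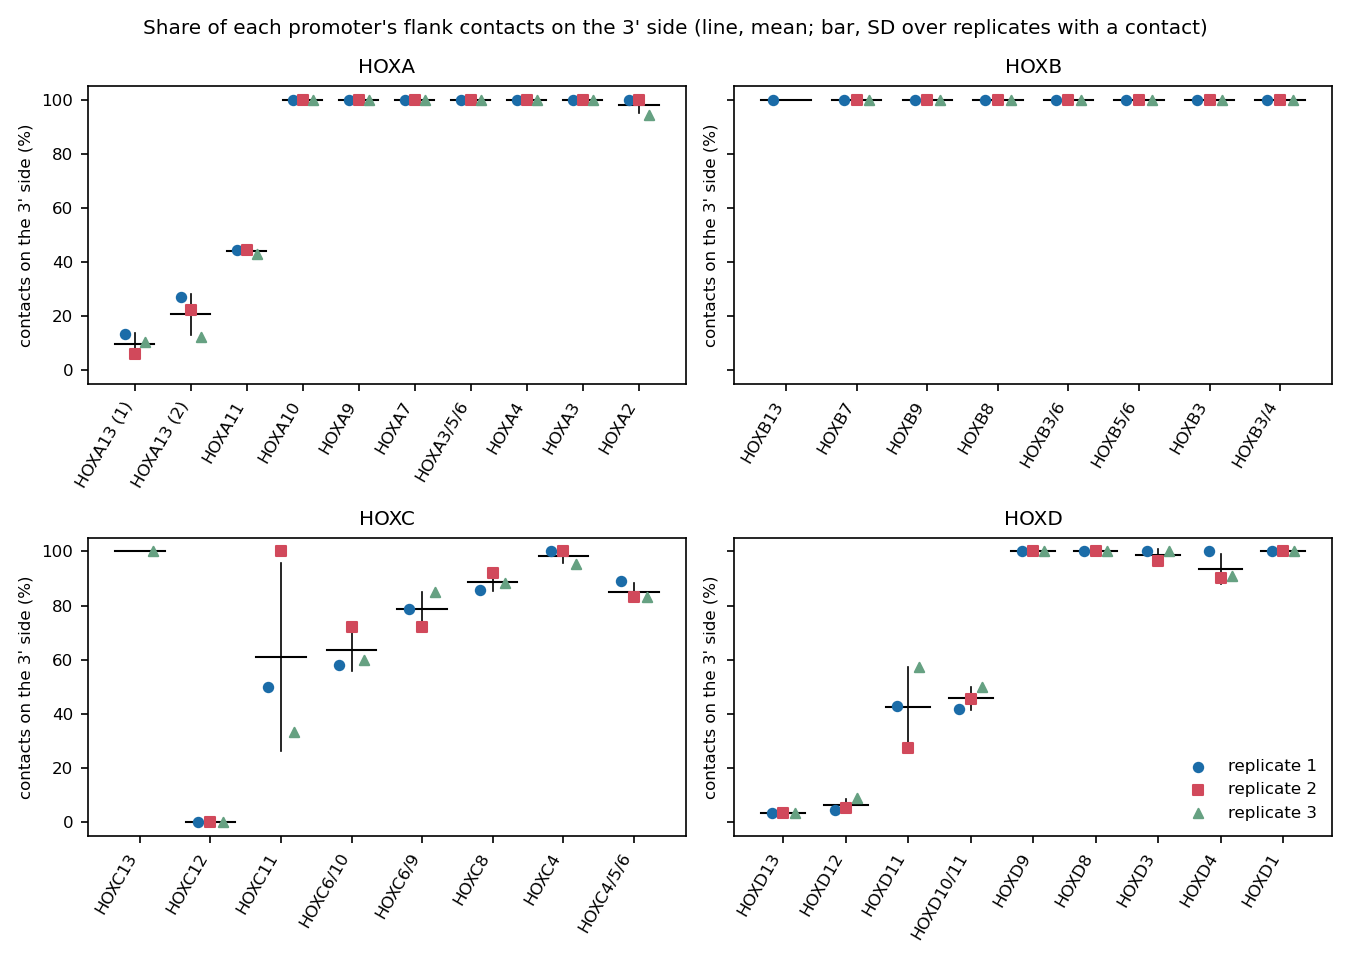
Share of each promoter fragment's contacts outside its cluster that lie on the 3′ side (y axis, %), in each replicate, with promoters ordered from the 5′ to the 3′ end, the mean as a line and the SD as a bar over replicates with a contact. The share steps from 9.91% at the first HOXA13 fragment to 100% at HOXA10, and from 3.57% at HOXD13 to 100% at HOXD9, while all HOXB promoters are at 100%.

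In HOXA, the promoters from HOXA2 to HOXA10 contacted the 3′ flank and HOXA13 the 5′ flank, with HOXA11 in between. Of their contacts on either flank, HOXA10, HOXA9, HOXA7, HOXA3/HOXA5/HOXA6, HOXA4 and HOXA3 had 100% on the 3′ side in each replicate, and HOXA2 had 100%, 100% and 94.4%. HOXA11 had 44.4%, 44.4% and 42.9%. The HOXA13 fragments had 13.3%, 5.88% and 10.5% (chr7:27238413-27242311) and 27.3%, 22.2% and 12.5% (chr7:27230274-27238412). The switch thus lay between HOXA10 and HOXA13, in a cluster where HOXA10, HOXA11 and HOXA13 are the genes known from limb and reproductive tract development.

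The contacts of the 3′ HOXA genes ran to 4 narrow blocks. The farthest was a block of 42.0 kb at chr7:25894198-25936200, between NPVF, which encodes a neuropeptide precursor, and NFE2L3, with 35 contacts in all 3 replicates from 8 fragments. Its centre, chr7:25912217-25913876, was called for all 10 HOXA fragments, 8 of them in all 3 replicates, at 1227 to 1327 kb. Scores in replicates 1, 2 and 3 were 30.9, 11.6 and 21.8 for HOXA4 (21.4 ± 9.64), 22.4, 17.7 and 22.2 for HOXA3 (20.8 ± 2.65), 26.7, 11.8 and 19.7 for HOXA9 (19.4 ± 7.46) and 17.4, 23.9 and 16.95 for HOXA3/HOXA5/HOXA6 (19.4 ± 3.88). These values overlap, so the 4 strongest HOXA promoters cannot be ranked at this PIR. HOXA2, HOXA7, HOXA10 and HOXA11 had lower means of 13.7 ± 4.08, 12.5 ± 2.13, 12.4 ± 1.64 and 11.7 ± 1.83, but their ranges overlapped those of HOXA4 and HOXA9, which were lowest in replicate 2. The HOXA13 fragments scored 5.80 and 5.30 in 2 replicates and 7.11 and 7.09 in 2 replicates, below every listed score of the other HOXA promoters with this PIR. HOXA4 also contacted the neighbouring PIR chr7:25909195-25912216 with scores of 17.8, 16.8 and 18.4. The longest contact of HOXA in all 3 replicates ran from HOXA10 to the far end of the block, chr7:25894198-25904065, at 1320 kb with 11.9, 12.7 and 8.17.

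The nearest blocks of HOXA ended in SKAP2, which encodes a Src kinase adaptor of blood cells. Another lay in SNX10-AS1, a long noncoding RNA gene between SNX10 and SKAP2. A block of 14.9 kb at chr7:26890595-26905527 held 27 contacts in all 3 replicates, from HOXA2, HOXA3, HOXA4, HOXA3/HOXA5/HOXA6 and HOXA7. A block of 17.9 kb at chr7:26715483-26733372 held 5, from HOXA7 and HOXA3/HOXA5/HOXA6. The block in SNX10-AS1, 12.1 kb at chr7:26414225-26426318, held 4. The last was reached by HOXA7 (11.7 ± 3.11), HOXA3/HOXA5/HOXA6 (8.81 ± 3.34) and HOXA9 (6.07 ± 0.601). HOXA9 and HOXA10 had no contact in the SKAP2 blocks in all 3 replicates. The printed SKAP2 intron fragment scored 9.56, 7.06 and 7.02 with HOXA3/HOXA5/HOXA6, 8.24, 5.44 and 8.09 with HOXA4 and 5.27, 6.37 and 5.10 with HOXA2.

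On the 5′ side, 9 contacts in all 3 replicates ran from HOXA13 and HOXA11 into JAZF1, a zinc finger gene, over 814 to 838 kb. They ended in 9.84 kb at chr7:28053705-28063544. The printed fragment scored 8.90, 13.3 and 8.16 with 1 HOXA13 fragment and 8.25, 8.45 and 7.30 with the other. HOXA11 was the only HOXA promoter with contacts in all 3 replicates on both sides, 3 on the 3′ and 2 on the 5′ side. Of the 5′ contacts of HOXA, 9 of 51 (17.6%) were called in all 3, against 71 of 143 (49.7%) of the 3′ contacts.

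**Figure D4:**
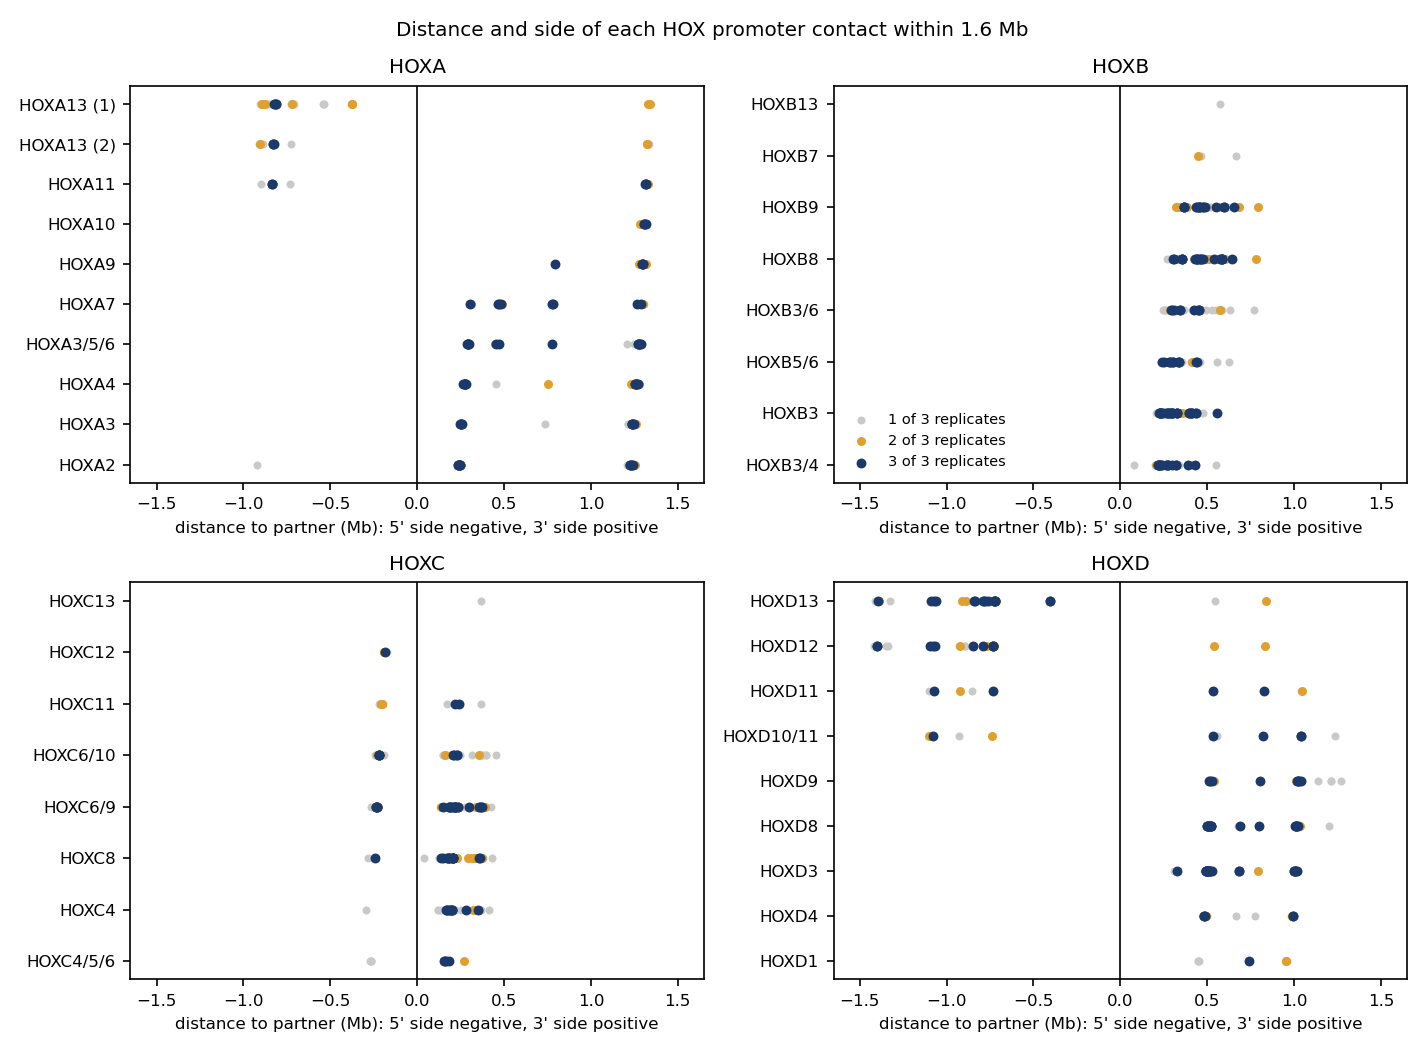
Distance from each HOX promoter fragment to its PIR (x axis, Mb; 5′ side negative, 3′ side positive) for contacts within 1.6 Mb, with promoters ordered from the 5′ to the 3′ end and colour by the number of replicates that called the contact. Dots stack at shared distances, 1.2 to 1.3 Mb for HOXA and 0.5 and 1.0 Mb for HOXD on the 3′ side, and no HOXB dot lies on the 5′ side.

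In HOXB, every flank contact pointed to the 3′ side. There were 256 of them and 0 on the 5′ side in the union, and 106 were called in all 3 replicates over 217 to 655 kb. Most ended in SKAP1, an adaptor gene of T cells and the paralogue of SKAP2, which had 202 HOXB contacts, 94 of them in all 3 replicates. SKAP1 and SKAP2 both flank the 3′ end of a cluster. The widest block, chr17:46336567-46441068, spanned 104.5 kb and held 60 contacts in all 3 replicates from 6 fragments.

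The PIR chr17:46337310-46338124, 815 bases in a SKAP1 intron, was called in all 3 replicates for 6 of the 8 HOXB fragments, all but HOXB7 and HOXB13. Scores were 15.9, 18.9 and 20.6 for HOXB3 (18.4 ± 2.35), 18.2, 15.2 and 13.9 for HOXB8 (15.8 ± 2.20), 12.7 ± 0.888 for HOXB3/HOXB4, 10.99 ± 2.37 for HOXB5/HOXB6, 10.4 ± 0.748 for HOXB3/HOXB6 and 9.36 ± 0.827 for HOXB9. HOXB3 and HOXB8 overlapped each other and lay above the other 4 promoters in every replicate. The printed SKAP1 fragment of 218 bases was called for the same 6 promoters in all 3 replicates and for HOXB13 in 1, with the highest scores again at HOXB8 (12.8, 14.9 and 15.0) and HOXB3 (13.4, 13.1 and 14.1). HOXB3 was also listed with chr17:46422900-46426331, which holds a SKAP1 start, at 13.1, 14.1 and 17.4. The printed fragment gave HOXB13 its only contact, with a score of 6.32 in replicate 1.

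Beyond SKAP1, contacts in all 3 replicates came from the fragments of HOXB8, HOXB9 and HOXB3. A block at chr17:46103074-46157918 held 10 contacts, which ended among others in COPZ2, a coatomer subunit gene, and CBX1, a heterochromatin protein gene. The longest contact in all 3 joined HOXB9 to a fragment with a start of CDK5RAP3, chr17:46047820-46049485, at 655 kb with scores of 9.65, 20.0 and 13.8 (14.5 ± 5.22). HOXB8 reached the same fragment with a mean score of 9.23. Of the 8 genes listed on the 3′ flank, 4 held a PIR called in all 3 replicates (SKAP1, COPZ2, CBX1 and CDK5RAP3), and of the 9 listed on the 5′ flank, PRAC1 to IGF2BP1, none held a PIR in any replicate.

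In HOXC, both flanks were contacted over short distances, and the 3′ flank more often. A block of 88.1 kb at chr12:54543306-54631415 held 46 contacts in all 3 replicates from 6 of the 8 fragments. It runs from SMUG1, which encodes a DNA repair glycosylase, to CBX5, which encodes a heterochromatin protein. Its strongest PIR, chr12:54583081-54591267 between these genes, scored 38.7, 33.8 and 34.5 with HOXC6/HOXC9 (35.6 ± 2.64) and 26.5, 27.8 and 28.3 with HOXC8 (27.5 ± 0.922). The values of the next promoters were 13.7 ± 1.44 for HOXC4, 11.2 ± 1.28 for HOXC6/HOXC10, 11.1 ± 1.13 for HOXC4/HOXC5/HOXC6 and 8.31 ± 1.45 for HOXC11. The ranges of HOXC6/HOXC9 and HOXC8 overlapped neither each other nor those of the other promoters, and the peak thus fell in the middle of the cluster rather than at its nearest end. HOXC12 and HOXC13 were not listed with it.

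HOXC6/HOXC9 also scored 29.8, 30.5 and 32.0 with the next PIR, chr12:54591268-54597369, and 23.2, 21.0 and 20.6 with chr12:54609713-54610062, 350 bases. Its scores with the printed fragment of 258 bases were 21.3, 18.6 and 19.2, against 13.7, 8.41 and 13.1 for HOXC8. HOXC8 scored 18.5, 19.1 and 24.6 with chr12:54591268-54597369, again below HOXC6/HOXC9 in every replicate. Farther blocks on the 3′ side lay at GPR84, which encodes a receptor for fatty acids, and ZNF385A (chr12:54750969-54768104, 7 contacts in all 3) and at the shared start region of NFE2 and COPZ1 (chr12:54689885-54700766, 2 contacts). The longest in all 3 joined HOXC6/HOXC9 to a fragment with a ZNF385A exon, chr12:54764825-54768104, at 372 kb with scores of 8.28, 9.36 and 10.7. Of the 8 genes listed on the 3′ flank, 6 held a PIR called in all 3 replicates, all but HNRNPA1 and ITGA5.

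The 5′ contacts of HOXC ended mainly in 7.22 kb at chr12:54158746-54165965, between CALCOCO1 and HOXC13. Of the 49 contacts on this side, 11 (22.4%) were called in all 3, from HOXC12, HOXC6/HOXC10, HOXC6/HOXC9 and HOXC8. HOXC12 had 0% on the 3′ side in each replicate, HOXC6/HOXC10 had 63.4% ± 7.68, HOXC6/HOXC9 78.8%, 72.2% and 85.0%, HOXC8 85.7%, 92.0% and 88.2% and HOXC4 100%, 100% and 95.2%. HOXC4/HOXC5/HOXC6 had 88.9%, 83.3% and 83.3%. The share of HOXC11 ranged from 33.3% to 100%, so its side was not settled. At the PIR chr12:54159335-54159707, the scores of HOXC6/HOXC9 (8.03), HOXC8 (7.18) and HOXC6/HOXC10 (7.10) overlapped, and none passed 8.96. Of the 7 genes listed on this flank, CALCOCO1 held 2 contacts in the union and none was contacted in all 3 replicates.

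In HOXD, the cluster split into promoters of the 5′ flank, promoters of both and promoters of the 3′ flank. HOXD13 had 3.57% of its contacts on the 3′ side in each replicate, and HOXD12 had 4.55%, 5.26% and 9.09%. HOXD11 had 42.9%, 27.3% and 57.1%, and HOXD10/HOXD11 had 45.7% ± 4.17. HOXD9, HOXD8 and HOXD1 had 100% in each replicate, and HOXD3 and HOXD4 at least 90.0%. The 5′ genes of this cluster are known for their use in digits and genitalia, and deserts of genes on both sides of it hold the regulatory regions studied in limb buds.

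The highest mean score over the replicates of all HOX contacts was on the 5′ side of HOXD, in a range that overlapped that of HOXC6/HOXC9. Its PIR was itself a promoter fragment, unlike the strongest PIR of HOXC6/HOXC9. For such pairs the higher score was kept where a list gave both orders. The PIR chr2:175894060-175899225, between CHN1, which encodes a Rac GTPase activator, and ATF2, scored 29.1, 35.8 and 49.4 with HOXD12 (38.1 ± 10.3), 33.2, 45.5 and 30.6 with HOXD13 (36.4 ± 7.98), 30.4, 29.3 and 15.9 with HOXD11 (25.2 ± 8.06) and 24.96, 23.87 and 16.01 with HOXD10/HOXD11 (21.6 ± 4.88). HOXD12 and HOXD13 overlapped, and both lay above HOXD10/HOXD11 in every replicate. In the merged calls this PIR scored lower, 33.4 with HOXD12 and 34.1 with HOXD13, than HOXC6/HOXC9 at its strongest PIR (55.3) or HOXD3 on the 3′ side at chr2:177501443-177506085 (57.7). From HOXD9 to HOXD1 it was not listed for any promoter. Also listed with this PIR were 8 promoter fragments outside the members, among them those of EVX2, the homeobox gene next to HOXD13, LNPK, ATF2, CHRNA1, NFE2L2 and WIPF1. The block at chr2:176114494-176238280 held another 17 contacts in all 3 replicates, and its printed fragment of 267 bases scored 22.1, 20.6 and 16.1 with HOXD13 and 13.94, 12.18 and 11.02 with HOXD12. Those 2 ranges did not overlap.

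HOXD promoters also reached the body of DLX1, a homeobox gene of the forebrain and branchial arches, about 4 Mb away. The fragment with a DLX1 start, chr2:172946170-172950208, was called for 4 HOX fragments in the union but for 0 in all 3 replicates. The fragment chr2:172954154-172956857, which holds a DLX1 exon but no annotated transcript start, scored 17.1, 13.7 and 13.6 with HOXD10/HOXD11 at 4017 kb (14.8 ± 2.03) and 12.83, 17.04 and 10.74 with HOXD12 at 4009 kb (13.5 ± 3.21). HOXD13 and HOXD11 were each called with it in 2 replicates. HOXD10/HOXD11 also scored 7.82, 7.86 and 9.78 with the neighbour chr2:172956858-172963112. These 3 were the only HOX contacts over 2000 kb called in all 3 replicates. Of a list of 110 developmental transcription factor genes, DLX1 and DLX2 were the only ones with a HOX contact in the gene body in the union, and DLX1 the only one in all 3 replicates. Of the 870 HOX contacts, 11 were with other chromosomes and 20 ran over 2000 kb, so listed genes elsewhere could seldom be contacted. No share over all genes was computed, so these counts do not show a preference for DLX genes.

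On the 3′ side of HOXD, 3 PIRs had contacts from most of the cluster. The fragment chr2:177501443-177506085, with the starts of the long noncoding RNAs LINC01116 and LINC01117, was called for all 9 fragments, 6 of them in all 3 replicates. Scores were 35.1, 32.5 and 31.8 for HOXD3 (33.1 ± 1.70), 18.7, 19.2 and 20.1 for HOXD8 (19.3 ± 0.713), 19.2, 16.7 and 18.7 for HOXD9 (18.2 ± 1.32), 13.2 ± 3.27 for HOXD10/HOXD11, 12.8 ± 3.20 for HOXD4 and 8.12 ± 1.27 for HOXD11. The HOXD3 fragment, which lies between those of HOXD8 and HOXD4, was above all others in every replicate, and HOXD8 and HOXD9 overlapped. HOXD13, HOXD12 and HOXD1 stayed at or below 6.37 in the replicates that listed them.

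The second, chr2:178011536-178013882, scored 22.2, 30.1 and 29.8 with HOXD8 (27.4 ± 4.48), 25.3, 19.8 and 32.4 with HOXD3 (25.8 ± 6.31), 20.7, 22.1 and 27.3 with HOXD9 (23.3 ± 3.48), 9.52 ± 1.22 with HOXD10/HOXD11 and 7.86 ± 1.49 with HOXD4. HOXD8, HOXD3 and HOXD9 overlapped and lay above the others. HOXD9 also had the longest 3′ contact of the cluster in all 3 replicates, with chr2:178029667-178030621 at 1042 kb and scores of 5.99, 5.22 and 6.70. The PIR chr2:177793836-177795439 was called for all 9 fragments, and HOXD10/HOXD11 had the highest mean, from 16.1, 17.3 and 15.1. It also gave HOXD1 its only contact in all 3 replicates, with 7.26, 6.50 and 6.98. None of the 6 genes listed on this flank, MTX2 to PDE11A, held a PIR in all 3 replicates, and on the 5′ flank CHN1 was the only 1 of 8.

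**Figure D5:**
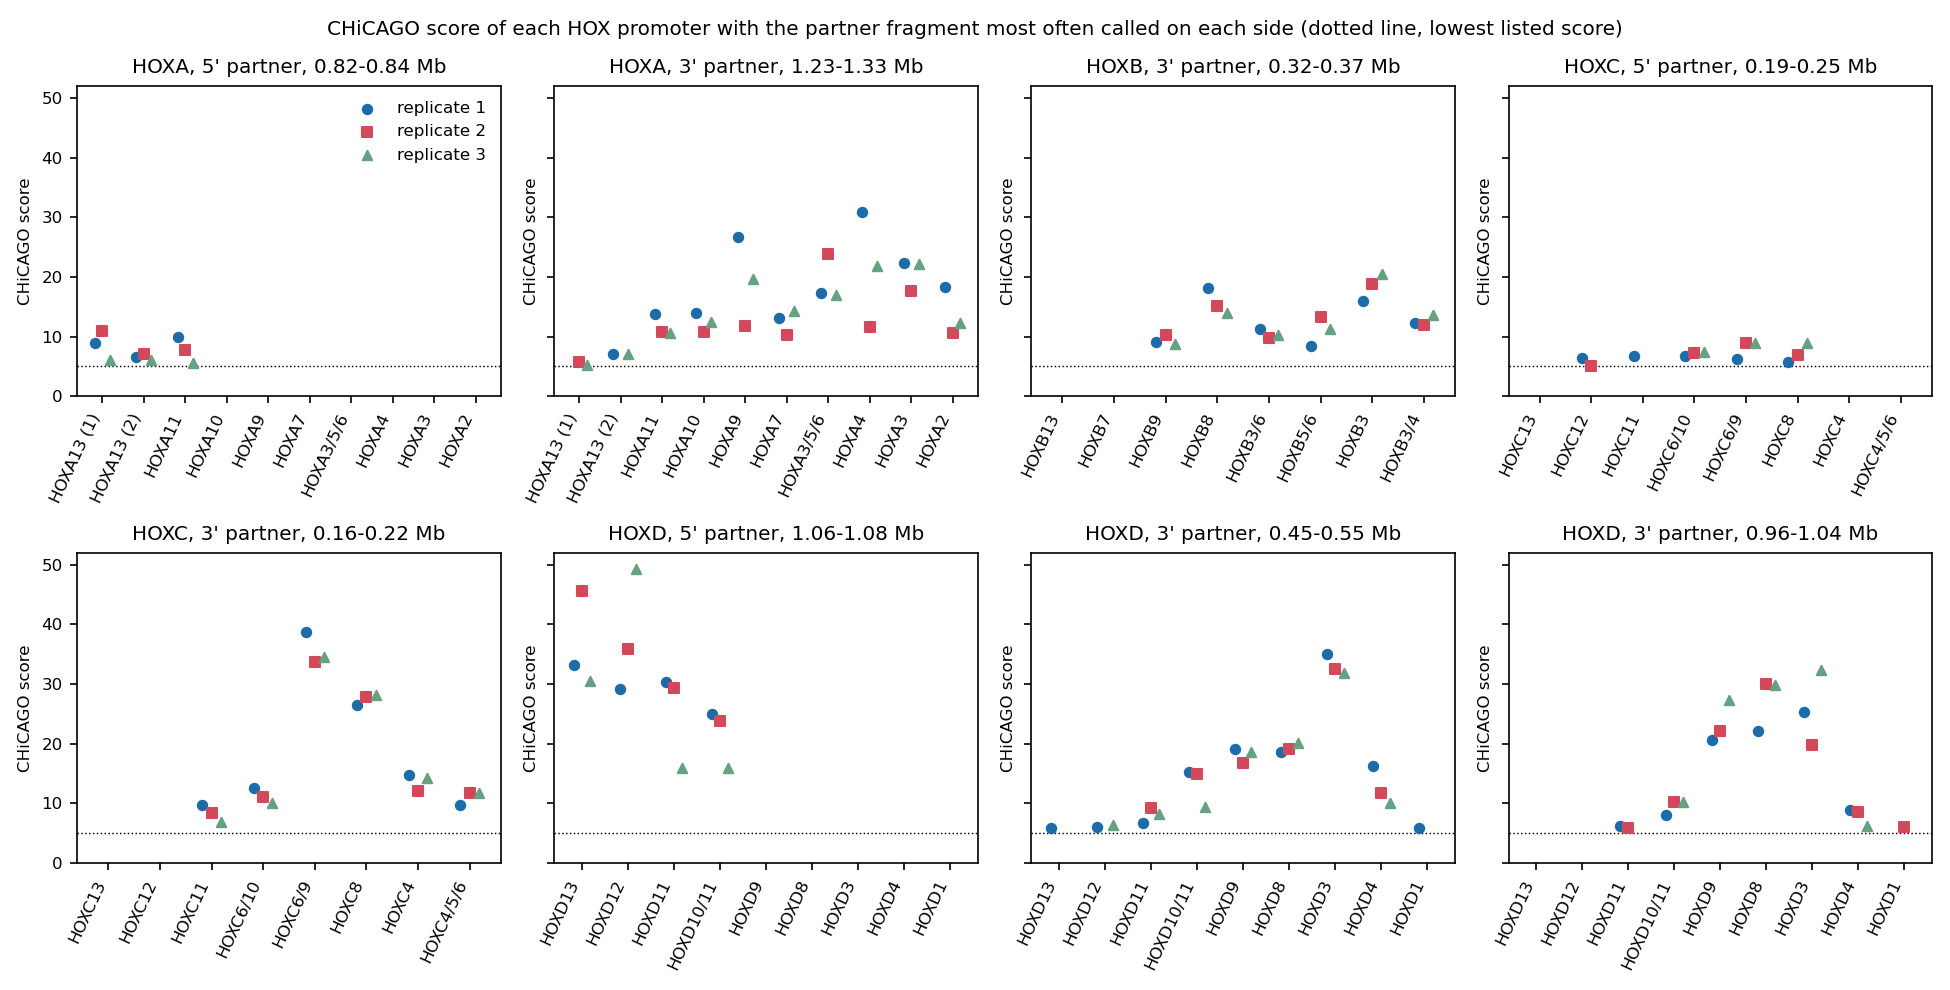
CHiCAGO score (y axis) in each replicate of every HOX promoter fragment with the PIR called for most promoters on each side of its cluster, with a second PIR for the 3′ side of HOXD. Distances are in the panel titles, promoters run from the 5′ to the 3′ end, and a promoter without a point had no listed score (dotted line, 5). Scores peak at HOXC6/HOXC9 (35.6) in HOXC, and in HOXD they are listed from HOXD13 to HOXD10/HOXD11 on the 5′ side and peak at HOXD3 (33.1) or HOXD8 (27.4) on the 3′ side.

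In HOXA and HOXD, promoters next to each other shared more of their PIRs than promoters 4 or more apart, by the medians of both lists. In HOXA, neighbours shared a median of 90.9% of the shorter list and 70.4% of the longer, and promoters 4 or more apart 29.4% and 18.2%. In HOXD these values were 81.0% and 54.1% for neighbours and 28.6% and 9.68% for those 4 or more apart. HOXD13 shared 27 PIRs with HOXD12, 71.1% of its own 38 and 90.0% of the 30 of HOXD12, but 3 with HOXD3, 7.89% of its own and 9.68% of the 31 of HOXD3. HOXD8 and HOXD3 shared 25, 83.3% and 80.6% of theirs. In HOXB neighbours shared 80.5% of the shorter list and 53.7% of the longer, and promoters 4 or more apart 71.2% and 3.13%. In HOXC the values were 78.9% and 42.1% for neighbours, and 50% and 9.02% for promoters 4 or more apart. Far pairs in HOXB and HOXC often held a short list, of 1 PIR at HOXB13, 3 at HOXB7, 2 at HOXC13 or 7 at HOXC12. A short list caps the share of the longer list, so distance and list size cannot be told apart there. HOXB9 shared 75.7% of its PIRs with HOXB3 (50.9% of the longer list) and 40.5% with HOXB3/HOXB4. HOXB8 shared 31.5% of its PIRs with HOXB3/HOXB4. Of the PIRs of each cluster, 41 of 71 in HOXA, 61 of 84 in HOXB, 51 of 73 in HOXC and 54 of 86 in HOXD were contacted by 2 or more HOX fragments. Sharing between other promoter fragments as close together was not computed, so these values are not read as particular to HOX clusters. PIRs that were themselves promoter fragments took 12.3% of HOX contacts, against 9.59% of all contacts, and ranged from 2.02% in HOXA and 8.91% in HOXB to 9.36% in HOXC and 28.9% in HOXD.

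The letters AGNNGGCGC were found in more of the HOX promoter fragments than of promoter fragments alike in length, and in the shared PIRs at a share near that of fragments alike in length. Of the 35 HOX promoter fragments, 24 held a match (68.6%), against a mean of 38.8% over other promoter fragments of similar length, within 10% of each. By cluster, 6 of 10 HOXA, 5 of 8 HOXB, 7 of 8 HOXC and 6 of 9 HOXD fragments held one. The GC content of HOX promoter fragments had a median of 53.6%, and its part in this was not tested. Of the 99 PIRs called in all 3 replicates for at least 2 HOX fragments, 11 held a match (11.1%), against 9.47% of called fragments of similar length, and 6 of these were among the 19 of HOXC (31.6%, against 12.2%). The strongest PIR of HOXC and the HOXD PIR chr2:178011536-178013882 are among them, as the windows printed above show. The PIRs with the highest mean score over the replicates in HOXA, chr7:25912217-25913876, and in HOXD, chr2:175894060-175899225, held none. A match to these letters is not a measured binding site.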

How the data were processed

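PCHi-C was analysed in 3 biological replicates of hESC-CMs, mapped to 1 group by the labels. Per the study's methods, the authors mapped reads with HiCUP to the human genome (GRCh37 per the labels), called interactions with CHiCAGO and deposited, for each replicate and for the merged replicates, lists of HindIII fragment pairs with a CHiCAGO score; no read counts were used here. The deposited score starts at 5 in each list, so weak contacts are missing and depth is unknown.

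Each contact was an unordered pair, with the higher score kept where a list gave both orders, and values are for the replicates pooled as a union unless stated. Transcript starts came from GENCODE v44 lifted to GRCh37. Distances are between fragment midpoints, and a mean score is over the replicates that called the contact. PIRs at most 50 kb apart formed a block. Wilson intervals are at 95%, and shares of 0 were bounded by 3 counts. The members and gene lists were chosen with earlier results of these data known. All 38 members were named, with, in each cluster, the promoter with most contacts, the 5 contacts of highest mean score over 50 kb outside it, and the longest contact in all 3 replicates on each side. The PIRs plotted were those called in all 3 replicates for most HOX fragments on each side, and the sequences came from the most shared short PIR and the most shared longer PIR with a motif match on each side, except PIRs at CDK5RAP3 and CHN1, where other matches fell in exons; other PIRs and blocks were named after their values were seen. Counting was tested on simulated data. Python 3.11.15, numpy 2.4.6, scipy 1.17.1 and matplotlib 3.10.9 were used. Alternatives were scores of at least 7 or 10, the merged calls, each replicate left out, HOX fragments as promoter ends only, pairs of promoter fragments left out, starts of protein-coding transcripts only and matching within 5 kb. The result for 1 of the gene lists is not reported here.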

Additional observations from a re-analysis of the deposited data

How the results depend on the processing

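No paired analysis was possible because there was 1 group and no test. At a score of at least 7 and of at least 10, the HOX contacts fell to 451 and 192, the median per promoter fragment to 12 and 5, the share between chromosomes to 0.887% and 0%, and the share inside the cluster to 0% and 0%. The 3′ share was 79.6% and 83.9% and the median distance 483 and 510 kb at these scores. The merged calls gave 0% between chromosomes, a median distance of 440 kb and 21 contacts per fragment. With HOX fragments as promoter ends only, the 3′ share was 81.1%, the median distance 427 kb and the median per fragment 21. Without pairs of promoter fragments these were 80.6%, 428 kb and 21, and with protein-coding starts only, which leave 31 fragments, 80.1%, 434 kb and 27. Counting a call within 5 kb as the same raised the share in all replicates to 74.5%. With 1 replicate left out, the share in all remaining replicates was 53.2% to 55.0%, the share between chromosomes 0.661% to 1.17%, the 3′ share 78.7% to 79.4%, the median distance 446 to 453 kb and the median per fragment 21 to 22. In the merged calls, contacts between HOX clusters were again 0 and the 3′ share of HOXB was 99.4%. The other alternatives run for these 2 values took subsets of the union, so they could only give 0 and 100% again.

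Contacts scoring under 5 are not listed, read depth is unknown, and adjacent PIRs of the same promoter repeat much of the same signal.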

Other observations

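The merged calls listed contacts for the promoters that the replicates did not. HOXB1 (chr17:46603999-46610796) had 1 contact with a score of 5.23, HOXB2 (chr17:46613048-46623253) had 6 with scores of 5.02 to 6.41, and a further fragment of HOXB3 (chr17:46633399-46634779) had 5 with scores of 5.16 to 7.43. All ended in SKAP1.

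Single calls reached far along the chromosome. HOXC13 was listed with RFLNA at 70418 kb with a score of 6.06, and HOXD4 with LINC01159 at 71528 kb with 7.35, each in replicate 3 only.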
